A study of Mus musculus with 10 samples.

Results

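The RNAs described here are 4 nuclear long noncoding RNAs, *Malat1*, *Neat1*, *Kcnq1ot1* and *Gm26917*, in microglia of the mouse. They were taken by gene symbol from the count tables of all 10 libraries and make up 4 of the 18292 symbols listed. The members were chosen by their counts per cell in these same tables, so their spread over cells and their covariation are given as a description, without a test. Long noncoding RNAs are transcripts without a long open reading frame, and *Malat1*, *Neat1* and *Kcnq1ot1* are retained mostly at or near chromatin. Where *Gm26917* is retained was not tested. *Malat1* is an abundant RNA of nuclear speckles, the bodies that store splicing factors, and *Neat1* is the RNA scaffold of paraspeckles, a second kind of nuclear body that forms next to its own gene. *Kcnq1ot1* is made from the paternal chromosome and silences imprinted genes around it, whereas *Gm26917* is a poorly characterised transcript whose gene lies beside ribosomal RNA sequence.

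All animals were of the C57BL/6 strain, and all cells had been sorted as live, CD11b high and CD45 intermediate. Microglia were either isolated straight from the brains of adult mice (adult), harvested from mixed glial cultures of neonatal cortex kept for 3 weeks (*in vitro*), or recovered from neonatal brain slices kept on a membrane for 1 day, 1 week or 3 weeks (slice 1 day, slice 1 week and slice 3 weeks). Each group had 2 libraries. The paper states that slices were pooled as needed at homogenization, without naming the libraries. Since animals are not named in the labels, p-values measure the spread between libraries, part of which may be technical, and the adult cells differ from all others in donor age as well as in culture. Adult replicate 1 and slice 3 weeks replicate 1 carry 1 study number and the other 8 libraries carry another.

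After the cell filters 19059 barcodes remained, between 61 and 3799 a library, with medians of 1858 to 13966 UMIs a cell and totals of 385373 to 39689540 UMIs. The same barcode was listed in more than 1 library in 226 cases. The 13 microglia markers were all read in every library and held 5.54% and 5.59% of UMIs in adult cells, against 0.873% to 3.12% in the 8 culture libraries. Markers of neutrophils, which the sort should have left out, held 0.783% and 2.26% of UMIs in the slice 1 day libraries, 4.04% and 0.103% in the slice 1 week libraries and 0.0211% or less elsewhere. Every cell outside the neutrophils also carried a neutrophil marker UMI in slice 1 day replicate 2 and slice 1 week replicate 1. Monocyte and border macrophage markers held 0.454% and 0.440% of UMIs *in vitro* and 0.163% or less in the other libraries. The *Malat1* and *Neat1* differences and the shares of cells low in *Malat1* are given below with and without neutrophils, whereas nothing was recomputed without monocytes or border macrophages.

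The kit captures RNA at stretches of A and reads near the 3′ end, so the 3′ ends of the gene models are shown, with the hexamer AATAAA, the usual signal for cleavage and A-tailing, in capitals. Coordinates and sequences are those of GENCODE on GRCm38, in which all 4 members were found. *Malat1* (chr19:5795690-5802672, minus strand) and *Neat1* (chr19:5824708-5845478, minus strand) are intergenic neighbours, 22035 bases apart, and *Kcnq1ot1* (chr7:143203458-143296549, minus strand) runs antisense within *Kcnq1*. *Gm26917* (chr17:39843013-39846341, plus strand) ends 616 bases before *Gm42418* and 12 bases before the RefSeq 18S ribosomal RNA pseudogene Rn18s-rs5. RefSeq lists *Gm42418* as a synonym of Rn18s-rs5, and the spans of these gene models overlap. The longest transcript of each has 1 exon, and their lengths are 6983, 20771, 93092 and 3329 bases in that order. The last 60 bases of each, and of the short *Neat1* isoform of 3004 bases, read:
Malat1-201: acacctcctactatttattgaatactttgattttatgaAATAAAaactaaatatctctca
Neat1-201: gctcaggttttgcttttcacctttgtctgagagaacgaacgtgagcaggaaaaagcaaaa
Neat1-202: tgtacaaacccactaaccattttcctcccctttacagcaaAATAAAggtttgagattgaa
Kcnq1ot1-201: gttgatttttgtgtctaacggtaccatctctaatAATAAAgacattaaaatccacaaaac
Gm26917-202: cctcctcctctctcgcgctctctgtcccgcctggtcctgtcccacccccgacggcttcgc
The hexamer lay 16 bases before the end of *Malat1*, 14 before that of the short *Neat1* isoform and 20 before that of *Kcnq1ot1*. It was not found in the last 60 bases of the long *Neat1* isoform or of *Gm26917*. It was searched on the transcript strand alone, and 27.2% of 141515 annotated transcripts hold it in that window. Internal stretches of A, in capitals in the following windows, were longest in these transcripts:
Malat1-201, bases 6659 to 6700: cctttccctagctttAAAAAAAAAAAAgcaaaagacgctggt
Kcnq1ot1-201, bases 69550 to 69620: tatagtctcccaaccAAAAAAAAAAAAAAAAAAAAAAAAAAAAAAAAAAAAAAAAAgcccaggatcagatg
The run of 12 A in *Malat1* ends 298 bases before the 3′ end and the run of 41 A in *Kcnq1ot1* 23487 bases before it. The longest run in *Neat1* was 7 and that in *Gm26917*, of which 69.1% of bases are G or C, was 4. At which of these places reads were captured was not tested, because the tables give 1 count a gene and UMI counts here are not divided by length.

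*Malat1*, the speckle RNA, was highest in adult microglia and fell, relative to all UMIs, in all 4 culture groups. Its level, in CPM (UMI counts relative to the library total, scaled by TMM factors), was 36373 and 45150 in the 2 adult libraries, 16098 and 15813 *in vitro*, and 16485 and 14603 in slice 1 day. It was 10853 and 7835 in slice 1 week and 13956 and 18709 in slice 3 weeks. No culture library reached either adult library, and slice 1 week was the lowest group, at 9344 ± 2134 (SD, n = 2) against 40762 ± 6206 in adult cells. The means of *in vitro* (15956 ± 202), slice 1 day (15544 ± 1331) and slice 3 weeks (16333 ± 3361) lay within the spread of slice 3 weeks. By edgeR's quasi-likelihood test with Benjamini-Hochberg adjustment over all genes, log2 CPM fell by 1.35 ± 0.21 (SE) *in vitro* (adjusted p = 0.000285), by 1.39 ± 0.21 in slice 1 day (0.000285), by 2.12 ± 0.21 in slice 1 week (7.83e-05) and by 1.32 ± 0.21 in slice 3 weeks (0.000685). Scaled to UMIs per cell instead, *Malat1* was higher in culture than in adult cells *in vitro* (log2 difference 0.86, adjusted p = 0.0431 in the same edgeR test) and in slice 1 day (0.18, 0.693), and the fall did not pass in slice 1 week (-0.89, 0.065) or slice 3 weeks (-0.20, 0.686), while that scaling put the median of all genes at 1.07 to 2.06, against -0.11 to -0.03 with TMM factors. In plain counts a cell held 131 and 99.5 *Malat1* UMIs in the adult libraries, 208 and 210 *in vitro* and 122 and 140 in slice 1 day. It held 74.3 and 50.2 in slice 1 week and 93.7 and 107 in slice 3 weeks. The fall was in its share of UMIs, and in slice 1 week both libraries also lay below both adult libraries in plain counts. Other lists moved in the same comparisons, and their part was not tested: of 100 cytosolic ribosomal protein genes 82, 96, 97 and 93 rose *in vitro* and in slice 1 day, 1 week and 3 weeks, with 0 falling, as did 11, 2, 4 and 8 of 13 mitochondrially encoded genes. Of 6 tested neuron markers 0, 4, 5 and 3 rose, and the 8 listed held 0.0560% of UMIs or less in every library. Of 12 monocyte and border macrophage markers 6, 12, 12 and 5 rose and 2, 0, 0 and 2 fell, and of 22 proliferation genes 19, 21, 12 and 21 rose. The 5 erythrocyte markers held 0.185% and 0 of UMIs in the adult libraries and 0.346% in slice 1 day replicate 1, with 8 UMIs or fewer in each other library. In summed counts, fewer cells with an RNA and less of it in each cell cannot be told apart.

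For *Malat1* neither *in vitro* against slice 3 weeks (log2 difference -0.03 ± 0.20, edgeR adjusted p = 0.919) nor slice 3 weeks against slice 1 day (0.07 ± 0.20, 0.825) passed, with UMIs per cell turning the first of these to 1.05 (0.021). Within the first study number the log2 difference of *Malat1* between slice 3 weeks and adult cells was -1.38, and within the second it was -1.27. Without the cells in which *Malat1* made up under 0.2% of UMIs, a group of cells described further on, the log2 differences from adult cells were -1.24 *in vitro*, -0.93 in slice 1 day, -1.87 in slice 1 week and -1.02 in slice 3 weeks, given as values only, since that limit uses *Malat1* itself. Without neutrophils they were -1.35, -1.39, -2.14 and -1.32.

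**Figure D1:**
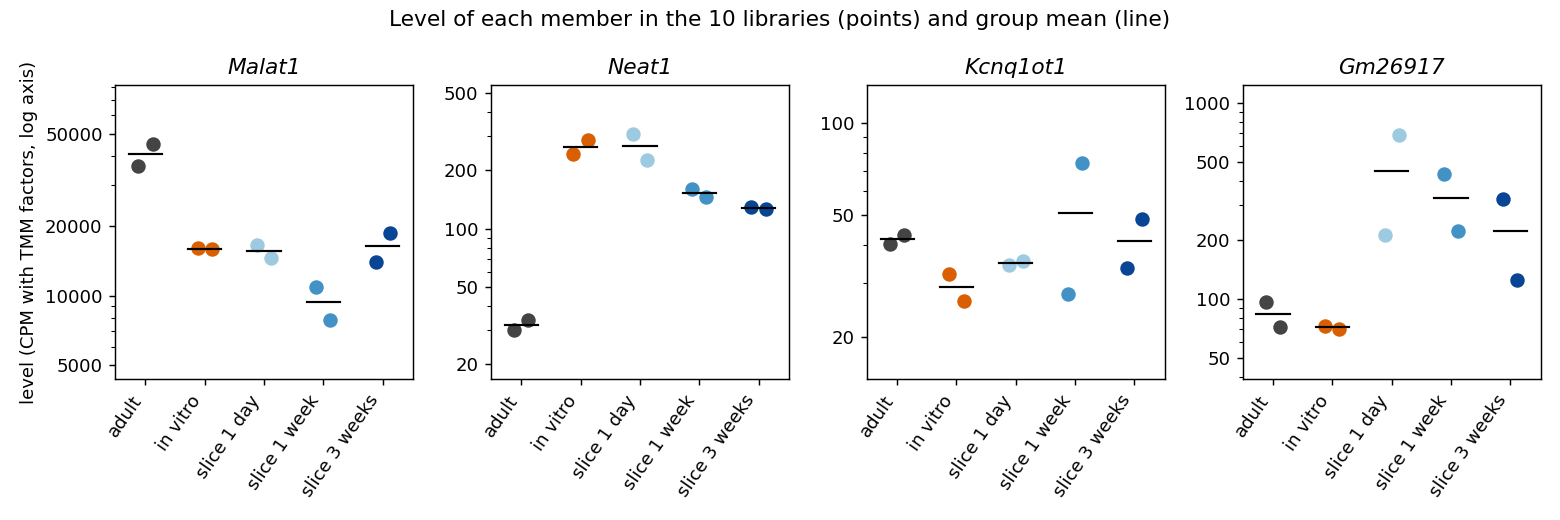
Level of each long noncoding RNA in CPM with TMM factors (vertical log axis) in the 5 groups, with 1 point for each of the 10 libraries and a line at each group mean. Both adult libraries lie above the 8 culture libraries for *Malat1* and below them for *Neat1*, and the *Gm26917* points of the slice groups are spread widely.

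*Neat1*, the paraspeckle scaffold, went the other way and rose in all 4 culture groups. Its level was 30.1 and 33.7 CPM in adult cells, 244 and 288 *in vitro* and 307 and 227 in slice 1 day. In slice 1 week it was 160 and 146, from only 162 and 57 UMIs, and in slice 3 weeks it was 130 and 126. All 8 culture libraries lay above both adult libraries, and the groups fell into a higher pair (*in vitro* 266 ± 31.0 and slice 1 day 267 ± 57.2) and a lower pair (slice 1 week 153 ± 10.1 and slice 3 weeks 128 ± 3.09; SD, n = 2). Against adult cells the edgeR fold was 8.34 *in vitro* (log2 3.06 ± 0.18, adjusted p = 4.88e-07), 8.37 in slice 1 day (3.07 ± 0.18, 1.45e-06), 4.82 in slice 1 week (2.27 ± 0.19, 2.56e-05) and 4.02 in slice 3 weeks (2.01 ± 0.18, 2.41e-05). *Neat1* also fell between 1 day and 3 weeks of slice culture, by 1.06 ± 0.17 on the log2 scale (adjusted p = 0.00165), and was 2.08 times as high *in vitro* as in slice 3 weeks (log2 1.06 ± 0.17, 0.000946). The direction held under UMIs per cell in all 6 comparisons, with log2 differences from adult cells of 3.13 to 5.25. Within study numbers the log2 difference of slice 3 weeks from adult cells was 2.11 and 1.90.

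Neutrophils carried *Neat1* too, and in the slices their level was above that of the other cells. It was 568 against 310 CPM (unscaled) in slice 1 day replicate 1, 264 against 228 in slice 1 day replicate 2 and 311 against 126 in slice 1 week replicate 1. Without neutrophils the rise over adult cells was 3.02 (log2) in slice 1 day and 2.07 in slice 1 week, close to the values with them.

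*Kcnq1ot1*, the imprinted antisense RNA, passed the test in none of the 6 comparisons. It stood at 40.2 and 43.2 CPM in adult cells, 32.2 and 26.3 *in vitro*, 34.6 and 35.6 in slice 1 day and 33.6 and 48.7 in slice 3 weeks. In slice 1 week the values were 27.7 and 74.1, the lowest but 1 and the highest of all libraries, from 28 and 29 UMIs. Both *in vitro* libraries (29.2 ± 4.20, SD, n = 2) lay below those of adult cells (41.7 ± 2.11), slice 1 day (35.1 ± 0.743) and slice 3 weeks (41.2 ± 10.7), and slice 1 day lay below adult cells, without passing the test. Its log2 differences from adult cells were -0.51 ± 0.27 *in vitro* (edgeR adjusted p = 0.128), -0.25 ± 0.28 in slice 1 day (0.474), 0.09 ± 0.36 in slice 1 week (0.894) and -0.01 ± 0.27 in slice 3 weeks (0.992). The difference *in vitro* passed when counts were scaled by library size alone (-0.82, 0.0276). Under UMIs per cell all 4 were positive, 1.08 to 1.67, and passed.

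*Gm26917*, next to the ribosomal RNA pseudogene, varied widely between the replicates of each slice group. It measured 96.6 and 71.8 CPM in adult cells and 73.2 and 70.2 *in vitro*. Slice 1 day measured 211 and 685, slice 1 week 432 and 222, and slice 3 weeks 322 and 124. All 6 slice libraries exceeded the 4 adult and *in vitro* libraries, but the 3 slice groups overlapped, with means of 448 ± 335, 327 ± 148 and 223 ± 139 (SD, n = 2). It rose over adult cells by a log2 difference of 2.41 ± 0.56 in slice 1 day (edgeR adjusted p = 0.00418) and of 1.98 ± 0.56 in slice 1 week (0.0229). The difference of 1.40 ± 0.54 in slice 3 weeks (0.0619) and that of -0.23 ± 0.53 *in vitro* (0.733) did not pass, although *in vitro* lay below slice 3 weeks (-1.63 ± 0.54, 0.0362). That last call was lost under DESeq2 (-1.61, adjusted p = 0.0572), with the study number as a covariate (-1.05, 0.146), and without adult replicate 1, either *in vitro* replicate, either slice 1 week replicate or slice 3 weeks replicate 1 (-1.59 to -0.71, the last 0.308). Under UMIs per cell it was lost as well (-0.61, 0.145), while *in vitro* turned to a rise over adult cells (1.89, 1.76e-06) slice 1 day and slice 1 week rose by 4.01 and 3.13, and the rise in slice 3 weeks passed (3.03e-09). Without slice 1 day replicate 2 the difference in slice 1 day was 1.38 (0.0465). Slice 1 week lost its call without either adult library (2.26, adjusted p = 0.0622, without replicate 1; 1.77, 0.118, without replicate 2) and without slice 1 week replicate 1 (1.43, 0.265). Without slice 1 day replicate 2 and slice 1 week replicate 1 together, the libraries with neutrophil marker UMIs in every cell, the differences were 1.39 (0.052) at 1 day and 1.46 (0.148) at 1 week. The level in slice 1 day replicate 2 was 544 CPM in neutrophils and 711 in the other cells. Slice 3 weeks passed without its replicate 2 (1.99, 0.0178), and the replicates carry different study numbers, within which the log2 difference from adult cells was 1.74 and 0.79. Slice 3 weeks and slice 1 day did not differ beyond the spread (-1.01 ± 0.53, 0.174), without slice 1 day replicate 2 their difference was 0.08, and under UMIs per cell it passed (-1.50, 0.00118).

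Transcripts that share ribosomal RNA sequence with the *Gm26917* locus had calls that matched those of *Gm26917* in part. *Gm42418* and *AY036118*, which overlap each other on opposite strands and share ribosomal RNA sequence, rose *in vitro* over adult cells, by a log2 difference of 2.34 ± 0.79 (adjusted p = 0.0265) and of 4.26 ± 0.72 (0.000559), where *Gm26917* did not. Neither passed in slice 1 day (1.09 ± 0.76, 0.243, and 1.68 ± 0.66, 0.0531), where *Gm26917* did. In slice 1 week *AY036118* passed (2.64 ± 0.73, 0.0199), as *Gm26917* did, and *Gm42418* did not (0.93 ± 0.79, 0.414). *Lars2*, a mitochondrial tRNA synthetase gene placed in the same list and named after its values were seen, rose *in vitro* (1.16 ± 0.23, 0.00176), in slice 1 day (1.24 ± 0.25, 0.00205) and in slice 3 weeks (1.04 ± 0.24, 0.00648) at a low level. Under UMIs per cell 3 of these 3 transcripts rose *in vitro*, 3 in slice 1 day, 2 in slice 1 week and 3 in slice 3 weeks. Counts of *Gm26917*, *Gm42418* and *AY036118* are uncertain as measures of a single gene, since reads from ribosomal RNA could be split among them.

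Of the 4 members, 2 were called *in vitro* against adult cells (at an adjusted p under 0.05 and a fold over 1.5), where 50.8% of the 12157 genes tested were called. Against adult cells slice 1 day had 3 called members beside 50.2% of genes, slice 1 week 3 beside 28.6% and slice 3 weeks 2 beside 35.4%. *In vitro* against slice 3 weeks called 2 members and 33.2% of genes, and slice 3 weeks against slice 1 day 1 member and 26.7%. The 4 comparisons with adult cells share the 2 adult libraries. With so many genes called, a count of members near these shares is not particular to them. With 2 libraries against 2, a permutation of a single gene's values could not give a two-sided p below 0.333, so the calls rest on the spread that the fit shares over genes.

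The mRNAs of proteins of the bodies that hold *Malat1* and *Neat1* were counted as well. Of 25 for nuclear speckle proteins, all tested, 11 fell and 0 rose *in vitro* against adult cells, with a median log2 difference of -0.43 against -0.11 over all genes. Of the slices, 1 day had 5 falling and 2 rising (median -0.09), 1 week 5 falling and 0 rising (-0.29) and 3 weeks 2 falling and 0 rising (-0.12). Scaled to UMIs per cell the direction turned: 25 rose *in vitro*, 22 in slice 1 day, 13 in slice 1 week and 21 in slice 3 weeks and 0 fell, with medians of 1.72, 1.48, 0.93 and 0.99, each below that of all genes (2.06, 1.52, 1.11 and 1.07). By that scaling 10100, 8549, 5418 and 6919 of the 12157 genes rose in the same order, against which the counts of this and the following lists stand. The splicing regulator *Tra2a* had the largest fall *in vitro* (-1.19 ± 0.16), followed by *Son*, a scaffold protein of speckles (-0.98 ± 0.13). *Son* also fell in slice 1 week (-0.92 ± 0.14) and slice 3 weeks (-0.59 ± 0.13), whereas the splicing factor *Srsf3* rose in slice 1 day (1.15 ± 0.19). Of 18 for paraspeckle proteins 3 rose and 4 fell *in vitro*, 3 and 2 in slice 1 day, 2 and 4 in slice 1 week and 3 and 3 in slice 3 weeks, with medians of -0.24, -0.0015, -0.20 and -0.02, whereas under UMIs per cell 18, 15, 9 and 12 rose and 0 fell. Under library size alone 9 fell *in vitro* and 6 in slice 3 weeks, with 3 and 2 rising. *Hnrnpa1*, an RNA-binding protein, rose in every culture group (1.47 ± 0.16, 2.34 ± 0.16, 1.64 ± 0.17 and 1.39 ± 0.16 in that order). Each gene named here passed at an edgeR adjusted p of 0.00559 or lower.

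Other genes near the members gave mixed counts as well. In the imprinted domain around *Kcnq1ot1* 10 of 15 listed genes were tested. None rose and 7 fell *in vitro*, 2 rose and 2 fell in slice 1 day, 0 rose and 4 fell in slice 1 week and 3 rose and 4 fell in slice 3 weeks, while under UMIs per cell 6, 7, 2 and 5 rose and 3, 2, 1 and 2 fell in that order. *Cd81*, a tetraspanin of microglia and many other cells, fell in each, with log2 differences of -3.47 ± 0.19 *in vitro*, -2.59 ± 0.18 in slice 1 day, -2.01 ± 0.18 in slice 1 week and -0.60 ± 0.17 in slice 3 weeks (adjusted p of 0.0186 or lower). *Cdkn1c*, a cell cycle inhibitor and a known target of *Kcnq1ot1* silencing, named after its values were seen, fell by more, with -4.75 ± 0.41, -3.29 ± 0.43, -3.14 ± 0.69 and -4.06 ± 0.42 in that order (0.00682 or lower), while *Kcnq1ot1* itself did not pass. Both genes named from this domain fell, and those that rose in slice 1 day and slice 3 weeks are not named. Of 14 tested genes around *Malat1* and *Neat1*, 3 rose and 4 fell *in vitro*, 3 and 3 in slice 1 day, 1 and 3 in slice 1 week and 2 and 5 in slice 3 weeks. *Sipa1*, a regulator of the small GTPase Rap1, fell in each (-1.63 ± 0.18, -1.98 ± 0.18, -1.07 ± 0.19 and -1.51 ± 0.18), and so did *Rela*, a subunit of NF-kB (-0.68 to -0.85), all at an adjusted p of 0.00641 or lower, whereas under UMIs per cell 13, 11, 6 and 7 genes of this list rose and 0 fell. The genes of this list that rose with TMM factors are not named. Among 20 other nuclear long noncoding RNAs 13 were in the tables and 7 tested, with 1 rising and 4 falling *in vitro*, 2 and 2 in slice 1 day, 2 and 0 in slice 1 week and 1 and 1 in slice 3 weeks, but 2, 5, 3 and 4 rising and 0 falling under UMIs per cell. Of 15 nuclear lamina and matrix genes 6 rose and 2 fell *in vitro*, 6 and 1 in slice 1 day, 4 and 0 in slice 1 week and 4 and 1 in slice 3 weeks, with 13, 13, 10 and 12 rising and 0 falling under UMIs per cell, and 4 rising and 3 falling *in vitro* under library size alone. The rises in this list were led by *Lmna*, the A-type lamin, at 3.36 to 4.48 on the log2 scale.

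Over single cells, *Malat1* formed 1 range among adult microglia and broke into separate ranges in the slices. The median cell drew 3.97% and 5.13% of its UMIs from *Malat1* in the adult libraries, 1.42% and 1.31% *in vitro*, 1.71% and 1.12% in slice 1 day, 0.723% and 0.626% in slice 1 week and 1.36% and 1.54% in slice 3 weeks. The middle 50% of adult cells lay between 3.17% and 4.97% in replicate 1 and between 4.16% and 6.28% in replicate 2. The same range ran from 0.0462% to 3.03% in slice 1 day replicate 1. The lowest adult cell in replicate 2 had 0.610%, while 361 of 3740 cells of slice 3 weeks replicate 2 had no *Malat1* UMI at all and its highest cell had 71.9%.

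Cells under 0.2% numbered 7 of 3799 and 0 of 3527 in the adult libraries, the latter a count that allows up to 0.0851% of cells. They numbered 51 of 2417 (2.11%) and 109 of 2682 (4.06%) *in vitro*. In the slices they made up 28.6% (148 of 518) and 34.9% (354 of 1014) at 1 day, 21.6% (32 of 148) and 29.5% (18 of 61) at 1 week and 24.6% (284 of 1153) and 24.2% (905 of 3740) at 3 weeks. Without neutrophils the shares were 32.1% and 38.8% at 1 day and 25.6% and 30.0% at 1 week. All 6 slice libraries thus held a range of cells that adult microglia nearly lacked, and both 3-week slice libraries, of different study numbers, held it at about the same share. Few cells lay just above it: between 0.2% and 0.5% there were 54 cells in slice 3 weeks replicate 2 and 14 in slice 1 day replicate 1. The limit was less clear in slice 1 day replicate 2, where 79 cells lay between 0.1% and 0.2%, and in slice 1 week.

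**Figure D2:**
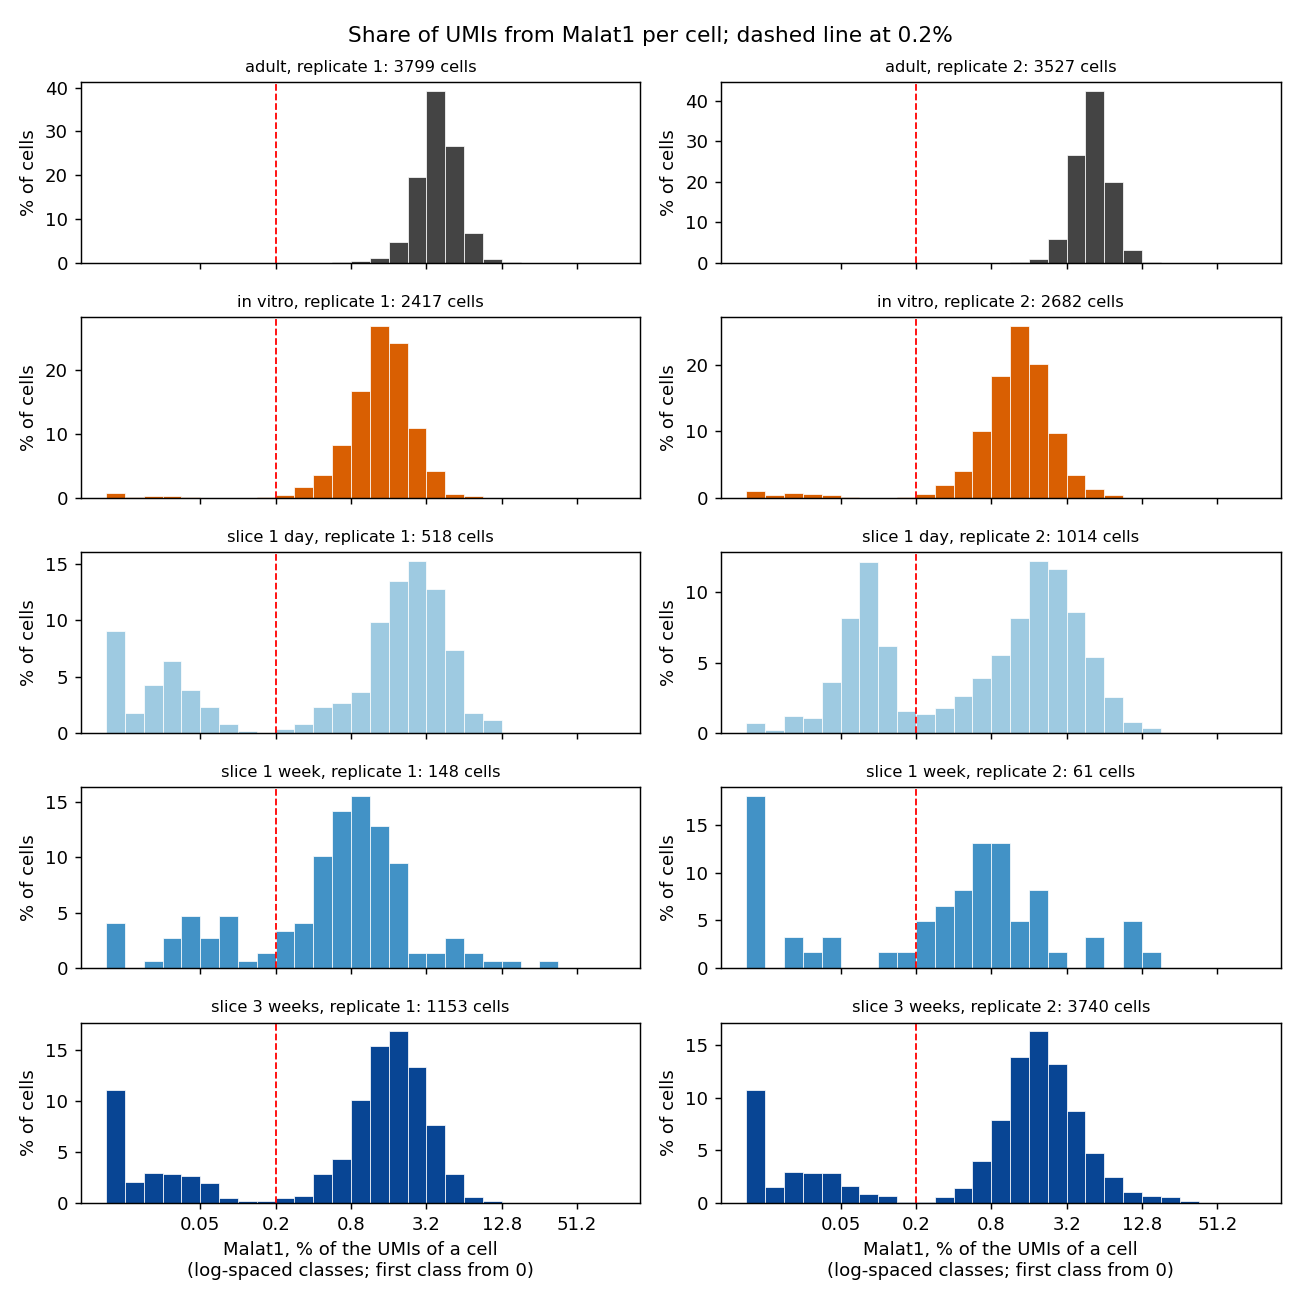
Percent of the cells of a library (vertical axis) by the percent of a cell's UMIs that came from *Malat1* (horizontal log-spaced classes, the first from 0), 1 panel for each library, with a dashed line at 0.2%. Adult cells form 1 peak near 4% to 5%, while slice libraries have a second group of cells left of the dashed line, 21.6% to 34.9% of cells.

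Depth differs between libraries, so every cell was also thinned to 1000 UMIs, which left out 66 and 205 shallower adult cells, 2 cells of slice 1 week replicate 2 and no others. Cells below 0.1 times the median thinned count of their library made up 0.188% and 0 of adult cells (the count of 0 among 3322 cells allows 0.0903%), 2.57% and 4.51% *in vitro*, 28.8% and 16.5% in slice 1 day, 12.2% and 23.7% in slice 1 week and 24.4% and 23.6% in slice 3 weeks. In slice 1 week that limit is under 1 UMI, and in slice 1 day replicate 2 it is 1 UMI with 185 cells within 2 times of it, so these shares are the least firm. The Fano factor of thinned *Malat1* counts, the variance over the mean, which is 1 for counting error alone, was 6.58 and 5.69 in adult cells and 7.82 in both *in vitro* libraries. It was 21.0 and 27.7 in slice 1 day, 56.5 and 52.8 in slice 1 week and 14.5 and 47.7 in slice 3 weeks. Taken relative to the mean, the spread beyond counting error (excess CV) was 0.365 and 0.297 in adult cells, 0.656 and 0.674 *in vitro* and 0.932 to 2.02 in the slices. The 2 adult libraries were the lowest on both scales. Among genes with a thinned mean of 0.1 or more, *Malat1* still ranked 10 of 1548 and 4 of 1643 by Fano factor in adult cells. In the slices its rank was between 2 and 15.

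The other members were sparse at this depth. A *Neat1* UMI was seen in 3.24% and 3.88% of thinned adult cells (exact 95% intervals 2.70% to 3.86% and 3.25% to 4.60%), 19.9% and 21.7% *in vitro*, 20.5% and 18.4% in slice 1 day, 10.8% and 5.08% in slice 1 week and 10.9% and 11.0% in slice 3 weeks. Before thinning the shares were 9.79% and 6.95%, 84.7% and 87.6%, 54.1% and 60.7%, 51.4% and 41.0%, and 39.1% and 33.9%. The adult libraries were lowest by share as by CPM, and the 5.08% of slice 1 week replicate 2 rests on 3 cells of 59. The Fano factor of *Neat1* was near that of counting error in adult cells (1.05 and 1.02), 1.13 and 1.21 *in vitro* and 1.62 to 2.38 in the slices, and its excess CV was 1.18 and 0.714, 0.733 and 0.892, and 1.54 to 3.08. The adult mean of 0.948 was 1.95 without thinning, within the thinned range of the slices, and 0.504 over all barcodes. One thinned cell of slice 3 weeks replicate 1 held 13 *Neat1* UMIs. *Kcnq1ot1* was seen in 2.03% to 10.2% of thinned cells and *Gm26917* in 6.45% to 48.5%, the latter highest in slice 1 day replicate 2. For *Gm26917* the Fano factor lay between 0.992 and 1.31 and the excess CV between 0 and 1.83, so in each slice library the Fano factor of *Neat1* was the higher. All intervals cover counting error only, and no cell type known to lack these RNAs was sorted, so no background share could be set beside them.

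In the slices the cells low in *Malat1* were low in *Neat1* and *Kcnq1ot1* too. Between the cells under 0.1 times the median and the rest, *Neat1* was at 19.0 and 463 CPM in slice 1 day replicate 1, 35.7 and 273 in replicate 2, 9.44 and 162 in slice 3 weeks replicate 1 and 10.0 and 152 in replicate 2 (the 4 members left out of the total). That is 24.4-fold (95% counting interval 15.9 to 39.6), 7.64-fold (5.83 to 10.2), 17.2-fold (10.4 to 30.8) and 15.2-fold (11.3 to 20.9) more in the rest. For *Kcnq1ot1*, slice 1 day replicate 1 had 1 UMI in the low cells, too few for a firm ratio (58.3, with an interval of 10.3 to 2320). In the next 3 libraries of the same order the ratios of the rest to the low cells were 16.4 (6.35 to 60.6, from 4 UMIs), 22.3 (7.53 to 109, from 3 UMIs) and 53.6 (22.9 to 165, from 5 UMIs). *In vitro*, where low cells were few, the ratios were smaller, at 2.78 and 4.04 for *Neat1* and 4.17 and 3.56 for *Kcnq1ot1*. In slice 1 week the low cells held 0 and 1 UMIs of *Neat1* and 0 and 1 of *Kcnq1ot1*, and in adult cells the 7 low cells of replicate 1 held none of either, too few for a ratio.

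*Gm26917* differed far less between these cells. The rest exceeded the low cells 2.67-fold (2.19 to 3.29) and 1.47-fold (1.36 to 1.59) in slice 1 day, 2.25-fold (1.97 to 2.56) and 2.06-fold (1.83 to 2.34) in slice 3 weeks, and 1.37-fold (1.01 to 1.91) and 1.34-fold (1.08 to 1.69) *in vitro*. The neighbouring *Gm42418* gave 1.18 to 3.78 in these 6 libraries. In slice 1 week the *Gm26917* ratios were 1.26 (0.839 to 1.96) and 2.34 (1.09 to 6.01), from 25 and 7 UMIs in the low cells. *Xist*, the RNA that coats the inactive X chromosome, was set beside the members as another chromatin-bound transcript and had ratios of similar size to those of *Kcnq1ot1*, with 39.1 (27.1 to 58.5) in slice 1 day replicate 1, 59.7 (49.6 to 72.4) in slice 3 weeks replicate 2, and 5.37 and 5.96 *in vitro*. *Xist* itself was near 0 in all cells of slice 1 day replicate 2 and slice 3 weeks replicate 1 (in the low cells 2 UMIs each, in the rest 25 and 7), and it had 0 UMIs in slice 1 week replicate 2, where for the low cells this allows up to 46.3 CPM. *Xist* is made in female cells, so the sex of the animals may differ between libraries, and its part in the results was not tested.

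**Figure D3:**
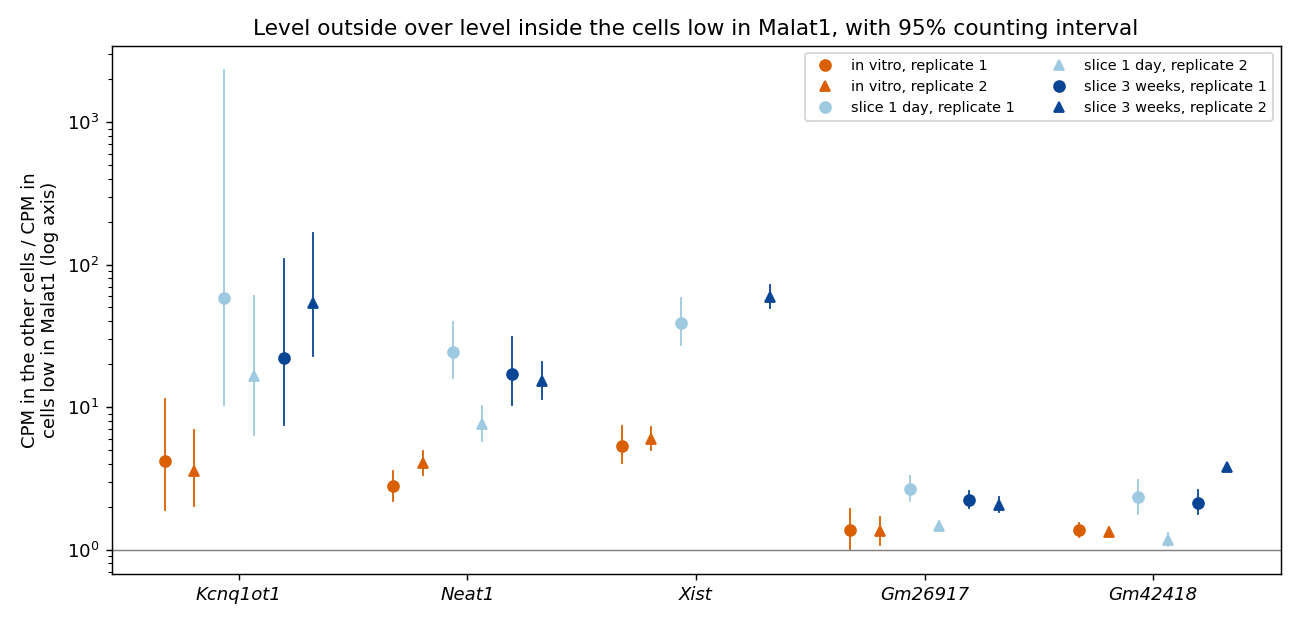
Level of each RNA in the other cells of a library over its level in the cells low in *Malat1* (vertical log axis), with 95% counting intervals, 1 point for each library that allows a ratio. *Kcnq1ot1* reaches a ratio of 53.6 in slice 3 weeks replicate 2 and *Neat1* 24.4 in slice 1 day replicate 1, whereas *Gm26917* stays at 2.67 or below in the slice 1 day and slice 3 weeks libraries. The higher *Kcnq1ot1* point of slice 1 day replicate 1 rests on 1 UMI in the low cells, too few for a firm ratio.

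How the low cells compared in depth differed by library. Their median was 6596 UMIs against 6353 in the rest in slice 1 day replicate 1, 7803 against 8433 in replicate 2, 5100 against 6453 in slice 3 weeks replicate 1 and 4479 against 5602 in replicate 2, and 12751 against 12861 *in vitro* replicate 1. They were shallower in slice 1 week (3255 against 7292 and 3871 against 7812 UMIs) and in adult replicate 1, where 7 low cells had 2009 against 3281. The low cells drew more of their UMIs from ribosomal protein genes, at 21.2% against 15.1%, 20.8% against 16.1%, 16.8% against 14.0% and 25.6% against 19.8% in the slice 1 day and slice 3 weeks libraries, and detected fewer genes (1984 against 2218 and 1413 against 1998 in the first and the last). Summed over cells, mitochondrially encoded RNA took more of the low cells' UMIs in those 4 libraries, as in slice 1 day replicate 1 (1.57% against 1.26%) and slice 3 weeks replicate 1 (2.03% against 1.81%), but less in slice 1 week (1.14% against 1.47% and 1.57% against 1.96%), and *in vitro* it was 2.28% against 2.37% in replicate 1 and 2.65% against 2.53% in replicate 2. By the median cell slice 3 weeks replicate 2 went the other way, with 1.24% in cells under 0.2% *Malat1* against 1.42% between 0.2% and 8%. In slice 1 day and slice 3 weeks replicate 1 that median was higher in the cells under 0.2%. Summed nuclear speckle protein mRNAs were at 2875 against 4198 CPM in slice 1 day replicate 1 and at 1419 against 4056 in slice 3 weeks replicate 2. Microglia markers were lower in the low cells but present, at 6993 against 11152 and 18813 against 27922 CPM in the same 2 libraries. Proliferation genes stood higher in the low cells of slice 1 day (1622 against 667 and 1734 against 1192 CPM), slice 1 week (1201 against 645 and 1066 against 871) and *in vitro* (1491 against 897 and 1537 against 1265), and at 1334 against 1310 and 686 against 702 in slice 3 weeks. Neutrophils were 0 and 0.599% of the low cells of slice 1 day against 15.4% and 12.3% of the rest, and none was found in slice 3 weeks. What part depth, ribosomal share, mitochondrial share or proliferation has in the low *Malat1* was not tested.

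At the other end, cells with 8% or more of UMIs from *Malat1* numbered 88 and 283 in the adult libraries, 4 and 3 *in vitro*, 6 and 21 in slice 1 day, 3 and 4 in slice 1 week and 3 and 126 in slice 3 weeks. *Neat1* in slice 3 weeks replicate 2 rose over the 3 ranges, from 9.42 CPM in the 905 cells under 0.2% to 131 in the 2709 cells between 0.2% and 8% and 1110 in the 126 cells above. *Kcnq1ot1* went from 0.657 to 58.6 and 125 CPM and *Gm26917* from 64.2 to 137 and 155 in those ranges. *Neat1* in slice 1 day replicate 2 went from 33.7 to 323 and 1088 CPM. The step was smaller in the adult libraries, from 34.2 to 69.5 in replicate 1 and from 38.6 to 76.7 in replicate 2, on 10 and 27 UMIs in the upper range. The 126 upper cells of slice 3 weeks replicate 2 were shallower than the cells of the middle range, with a median of 3087 against 5770 UMIs, and their median mitochondrial share was 0.370% against 1.42%. The adult upper cells were shallower too (1781 against 3285 UMIs in replicate 1 and 1366 against 1901 in replicate 2).

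**Figure D4:**
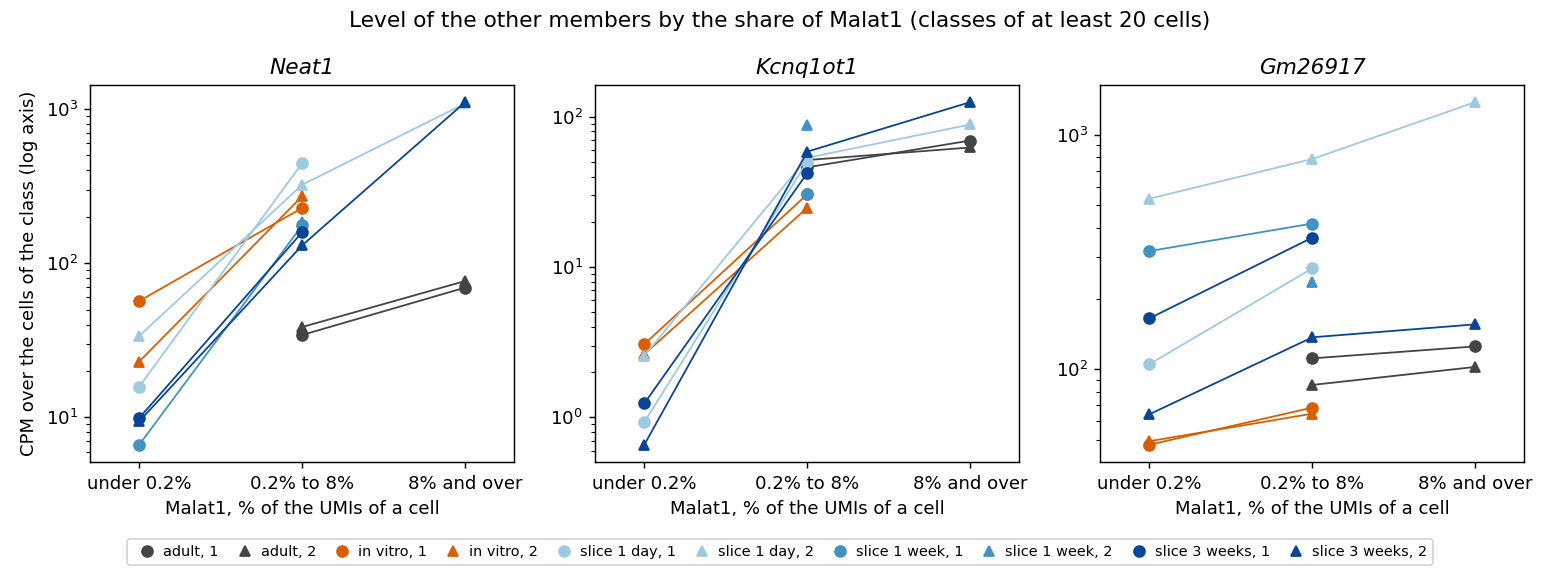
Level of *Neat1*, *Kcnq1ot1* and *Gm26917* (CPM with the 4 members left out of the total, log axis) over the cells of a library with under 0.2%, 0.2% to 8% and 8% or more of UMIs from *Malat1*, for classes of at least 20 cells. In slice 3 weeks replicate 2 the 3 *Neat1* points lie at 9.42, 131 and 1110 CPM, and the adult *Neat1* points of the upper 2 classes at 34.2 and 69.5 in replicate 1.

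Covariation over the cells of a library had positive medians between *Malat1* and each other member, and medians close to 0 in the pairs without *Malat1*. The Spearman correlation of thinned counts between *Malat1* and *Neat1* was 0.0239 and 0.0813 in adult cells, 0.0710 and 0.0692 *in vitro*, 0.320 and 0.353 in slice 1 day, 0.183 and 0.169 in slice 1 week and 0.231 and 0.262 in slice 3 weeks, over 59 to 3740 cells. It was positive in 10 of 10 libraries, with a median of 0.176, and the 6 slice libraries lay above the other 4. Without thinning the median was 0.295 and the values ran from 0.0206 to 0.602. Between *Malat1* and *Kcnq1ot1* the median was 0.0795 (10 of 10 positive) and between *Malat1* and *Gm26917* 0.139 (9 of 10). *Neat1* with *Kcnq1ot1* had a median of -0.0101 (4 positive), *Neat1* with *Gm26917* 0.0130 (8 positive) and *Kcnq1ot1* with *Gm26917* 0.0133 (7 positive), and single libraries of these 3 pairs ran from -0.187, over the 59 cells of slice 1 week replicate 2, to 0.0924. Those pairs, when depth was left to differ between cells, reached 0.260 in slice 1 day replicate 2 and 0.343 over the 61 cells of slice 1 week replicate 2. These values are descriptive: the cells of a library share its preparation and depth, most cells count 0 of the 3 sparser RNAs, and weak correlations in such counts are no finding.

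Leaving out cells by their *Malat1* share narrows the range of *Malat1*, which by itself can lower a correlation. With cells under 0.2% left out, the median between *Malat1* and *Neat1* was 0.0861 (10 of 10 positive), between *Malat1* and *Kcnq1ot1* 0.0414 (8 of 10) and between *Malat1* and *Gm26917* 0.0589 (9 of 10). Without neutrophils the median for *Malat1* and *Neat1* was 0.203. Ordered by their share of *Malat1* and cut into 5 equal classes, the top class of slice cells held 16.5 to 43.7 times the *Neat1* CPM of the bottom class in the 6 slice libraries, against 1.41 and 2.42 times in adult cells and 1.77 and 1.52 times *in vitro*. The slice 1 week values among them rest on 2 and 1 UMIs in the bottom class. For *Gm26917* the same ratio was 1.63 to 3.67 in the slices and 1.11 to 1.43 elsewhere.

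**Figure D5:**
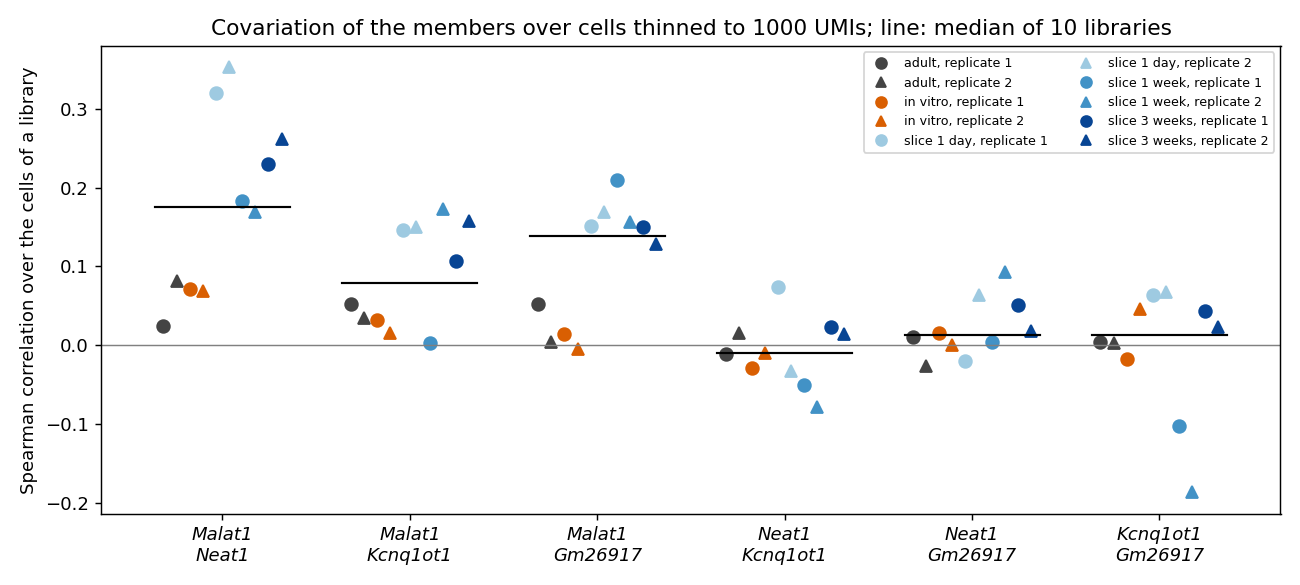
Spearman correlation of each pair of members over the cells of a library, thinned to 1000 UMIs (vertical axis), 1 point for each library and a line at the median of the 10. The *Malat1* and *Neat1* points run from 0.0239 to 0.353, all above 0, and the 3 pairs without *Malat1* have medians between -0.0101 and 0.0133.

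Among 443 genes seen in at least 20% of thinned cells in 8 or more libraries, those that went most with *Malat1* over cells were *Rsrp1*, an arginine- and serine-rich protein gene (median correlation 0.279), *Son* (0.172) and the microglial chemokine receptor *Cx3cr1* (0.169), each positive in 10 of 10 libraries. The most opposed were *Tmsb4x*, which encodes an actin-binding peptide (-0.295), and the ribosomal protein genes *Rps29* (-0.273) and *Rpl41* (-0.248). For *Neat1* the first was *Malat1* itself (0.176), then *Rsrp1* (0.0758) and the splicing factor *Rbm39* (0.0648), and the last were *Tmsb4x* (-0.117), *Rps29* (-0.108) and *Rpl19* (-0.0891). Correlations of shares within a cell are not independent, because more of 1 RNA leaves less room for the others.

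Over the 10 libraries, likeness was measured as the root mean square difference of log2 CPM after each gene was centred, among 3914 genes. The closest to *Malat1* were *Ywhah* (0.22), *Lims1* (0.25) and *Vrk2* (0.27), and those to *Neat1* were *Txn1* (0.23), *Glipr1* (0.25) and *Aprt* (0.28). *Ywhah*, a 14-3-3 protein gene, was at 1015 and 1136 CPM in adult cells and 294 to 503 in culture, and *Txn1*, which encodes thioredoxin, at 74.8 and 71.4 in adult cells and 274 to 614 in culture. *Kcnq1ot1* was nearest to *Whsc1l1* (0.19), *Pithd1* (0.25) and *Ccdc50* (0.25). *Gm26917* had no neighbour as near, the closest being *Eno1b* (0.49), *Gm10094* (0.49) and *Kpna2* (0.51). Between members the distances were larger, from 0.84 for *Malat1* and *Kcnq1ot1* to 1.70 for *Malat1* and *Neat1*.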

How the data were processed

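Single-cell libraries were made with the 10x Genomics 3′ kit v2. The authors deposited UMI counts per gene and cell, 1 table a library, which are raw counts, and the submitters' processing notes name Cell Ranger 1.3.0 and mm10. By the study's limits, 578 of 19637 barcodes were left out for a mitochondrial share above 5%, fewer than 400 detected genes or more than 30000 UMIs, leaving 19059 cells, and a gene missing from a table counted as 0. No doublet caller was run. Counts were summed by library (385373 to 39689540 UMIs) and tested with edgeR 4.0.16 (R 4.3.3), with TMM factors, filterByExpr at a minimum of 10 and 1 quasi-likelihood fit of all 10 libraries without covariates, over 12157 genes. A gene was called at a Benjamini-Hochberg adjusted p under 0.05 and a fold over 1.5.

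For spread and covariation 18786 cells were thinned to 1000 UMIs (Python 3.11.15, numpy 2.4.6, scipy 1.17.1, pandas 2.3.3) and no test was made. Neutrophils were cells with 5% or more of UMIs from their 13 markers. Gene models came from GENCODE on GRCm38. The members, lists, limits and named genes were chosen with earlier results of these data known. From a described list, up to 4 called genes with the largest and smallest differences and an average log2 CPM of 4 or more could be named; *Xist*, *Cdkn1c*, *Lars2*, the other values given for a gene so named and the limits of 0.2% and 8% were chosen after values were seen. Genes like a member needed an average log2 CPM of 5 over libraries. Scripts were tested on simulated data. Alternatives were other scalings, DESeq2 1.42.0, filters, thinning depths, a study covariate, a replicate block and leaving out each library.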

Additional observations from a re-analysis of the deposited data

How the results depend on the processing

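Of 1004 recomputed values, 922 kept their direction and their side of the threshold or stayed within the spread, and of 576 log2 fold changes 538 did. Apart from the scaling to UMIs per cell, all 138 recomputed *Malat1* and all 138 *Neat1* fold changes were rated unchanged. The counts were 137 of 138 for *Kcnq1ot1* and 114 of 138 for *Gm26917*.

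UMIs per cell turned *Malat1* *in vitro* (0.86) and in slice 1 day (0.18) against adult, the same RNA when *in vitro* was set against slice 3 weeks (1.05), *Kcnq1ot1* *in vitro* (1.67), in slice 1 day (1.32) and in slice 3 weeks (1.08), and *Gm26917* *in vitro* (1.89). It called 4 members *in vitro* against adult and 2 in slice 3 weeks against slice 1 day, and put 14 of 16 culture means above adult, against 8. Calls over the 6 comparisons went from 42 to 99 for nuclear speckle proteins, 30 to 69 for paraspeckle proteins, 7 to 15 for transcripts listed with the *Gm26917* locus and 31 to 54 for neighbours of *Malat1* and *Neat1*. It put the median of all genes in the 6 comparisons at -0.43 to 2.06, against -0.11 to 0.05. Library size alone took the share of higher genes among those called *in vitro* against adult from 44.0% to 30.0%.

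*In vitro* against slice 3 weeks called 1 member under DESeq2 and with the study covariate, and 1 to 2 with a library left out. Slice 3 weeks against slice 1 day called 2 without the filter on low counts and 1 to 2 with a library left out. *Gm26917* made these changes, and the cause was not tested.

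The excess CV of *Neat1* in adult cells was 1.95 without thinning and 0.504 over all barcodes, against 0.948. The median correlation of *Malat1* with *Neat1* was 0.295 and that of *Neat1* with *Kcnq1ot1* 0.0536 without thinning, and that of *Malat1* with *Gm26917* 0.0589 without low cells. Cells low in *Malat1* made up 31.7% of slice 1 day under the 0.2% limit, and of slice 3 weeks 25.1% below 0.2 times the median, 23.4% at 1800 UMIs and 25.4% over all barcodes.

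The replicate block changed no member's call, with 6083, 5980, 3366, 4156, 3891 and 3096 genes called in the 6 comparisons. Between groups, deviations of same-numbered libraries from their group means correlated at -0.276 to 0.305. Such values cannot tell whether libraries of the same number share an animal or a preparation. Leaving out cells with UMIs of other cell types was not run, since it left almost no cells in several culture libraries. The omission of low cells, of neutrophils and of 2 libraries together, the 0.2% limit and lists under UMIs per cell were added after seeing the data. Few cells limit slice 1 week (28 and 29 *Kcnq1ot1* UMIs), and few UMIs a cell limit the adult libraries.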
